A study of Homo sapiens with 8 samples.

Results

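H1299 is an established human cell line of non-small cell lung carcinoma, and its untreated cells are described here by what they expressed and what gave no signal over background. The members were the 4 untreated arrays of a series of 8, chosen by their labels: 2 served as controls for cells treated with 5azaC (5-azacytidine, a cytidine analog that blocks DNA methyltransferases) and 2 as controls for cells treated with GA (gallic acid, a phenolic acid of tea). Both sets, called 5azaC controls and GA controls below, were parental H1299 cells in RPMI1640 medium with fetal bovine serum and antibiotics, received neither agent, and came from the same passage as the treated cells they were matched with. The replicates of a set are labelled as biological. The treated arrays were not used, and a single line stands for 1 tumor only. RNA was measured on Clariom S arrays, on which a probe set collects the oligonucleotide probes for 1 gene, as 1 log2 signal per probe set and array.

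Lung carcinomas are sorted by the program of the airway or alveolar cell they resemble: surfactant proteins and NKX2-1 mark alveolar type 2 cells and many adenocarcinomas, keratins KRT5 and KRT14 mark basal and squamous cells, and chromogranin and synaptophysin mark neuroendocrine cells. Epithelial cells hold together through E-cadherin, claudins and the adhesion molecule EpCAM, while mesenchymal cells use N-cadherin, vimentin and fibronectin under the control of ZEB and SNAI repressors. A cell line keeps a part of such a program in culture, together with the housekeeping, metabolic and growth factor genes that let it divide.

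Each array carried 612 negative-control rows, and a gene was called above background on an array when its signal exceeded the 95th percentile of those rows. That percentile was 6.97 and 6.40 log2 units in 5azaC controls, against 6.31 and 6.51 in GA controls. The median over the 21448 gene probe sets was 5.85 and 5.85 in 5azaC controls, against 5.63 and 5.60 in GA controls. Of the probe sets, 8707 were above background on all 4 arrays, 11200 were below it on all 4, and the other 1541 were mixed. These were 40.6%, 52.2% and 7.18% of the total. Within the first class, 3834 (17.9% of all) lay at least 3 log2 units, that is 8-fold, over the percentile on all 4 arrays and are called strong here. Any pair of arrays gave the same call for 95.3% to 97.2% of probe sets. A signal below the percentile sets only an upper bound on a transcript, and signals come from the whole culture, so that fewer expressing cells and less RNA per cell cannot be told apart.

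**Figure D1:**
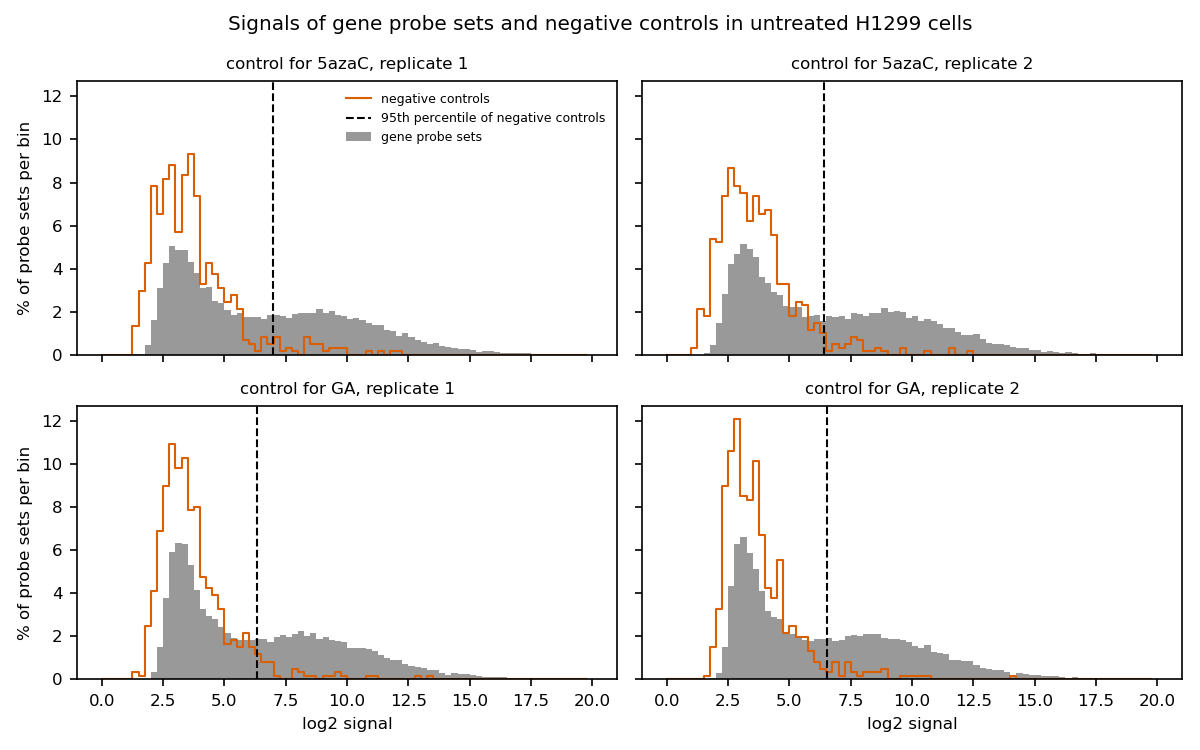
Share of the 21448 gene probe sets (grey bars) and of the 612 negative controls (orange line) in bins of log2 signal, 1 panel per untreated array. The dashed line is the 95th percentile of the negative controls, at 6.97 and 6.40 in 5azaC controls and at 6.31 and 6.51 in GA controls; gene signals form a dim peak left of it and a broad shoulder to its right.

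A gene symbol was known for 17709 probe sets, which gave 17687 genes. Of these, 43.3% were above on all 4 arrays, 49.3% below on all 4 and 18.8% strong. These shares are the background for the 44 lists of genes with a known role that follow, of whose 927 genes 814 were measured and the other 113 were not analysed here. Among the 814, 275 (33.8%) were above on all 4 arrays, 466 (57.2%) below on all 4 and 73 mixed. All 10 measured housekeeping genes were above and 8 of them were strong. Among 19 hormones and secreted products of other organs, such as growth hormone, glucagon and prolactin, 18 were below on all 4 arrays. The exception was LHB, which encodes the beta chain of luteinizing hormone, at 8.14 and 8.40 in 5azaC controls against 7.39 and 7.16 in GA controls. LHB has near-identical gene copies in the chorionic gonadotropin cluster that a probe set may not tell apart. At the stricter 99th percentile of the negative controls, 143 of the 814 list genes were above on all 4 arrays, against 275 at the 95th. Over all 21448 gene probe sets, 4007 were above on all 4 arrays at the 99th percentile, against 8707 at the 95th. The shares over all named genes hold for the 95th percentile only. Counts of single lists at other percentiles, given below, show how calls moved and were not set against a background. Of the list genes named below, VIM, ZEB1, CAV1, UCHL1, AXL, MYC, MET, CDKN2A and RB1 were among them. Those that were above at the 95th percentile and below on all 4 arrays at the 99th were, among lineage and patterning genes, ABCA3, RTKN2, EMP2, CDH2, FN1, PRF1, HOXC9, HOXC10, GATA6, PAX6, LHX2 and RUNX3. Among cancer, receptor and ligand genes they were HRAS, EGFR, DAPK1, IGF1R, TGFA, NRG1, TGFBR1, TGFBR2, FAS, CHRNA5, CHRNB1, ADRA1B and ADRA2C, and LHB was below as well.

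**Figure D2:**
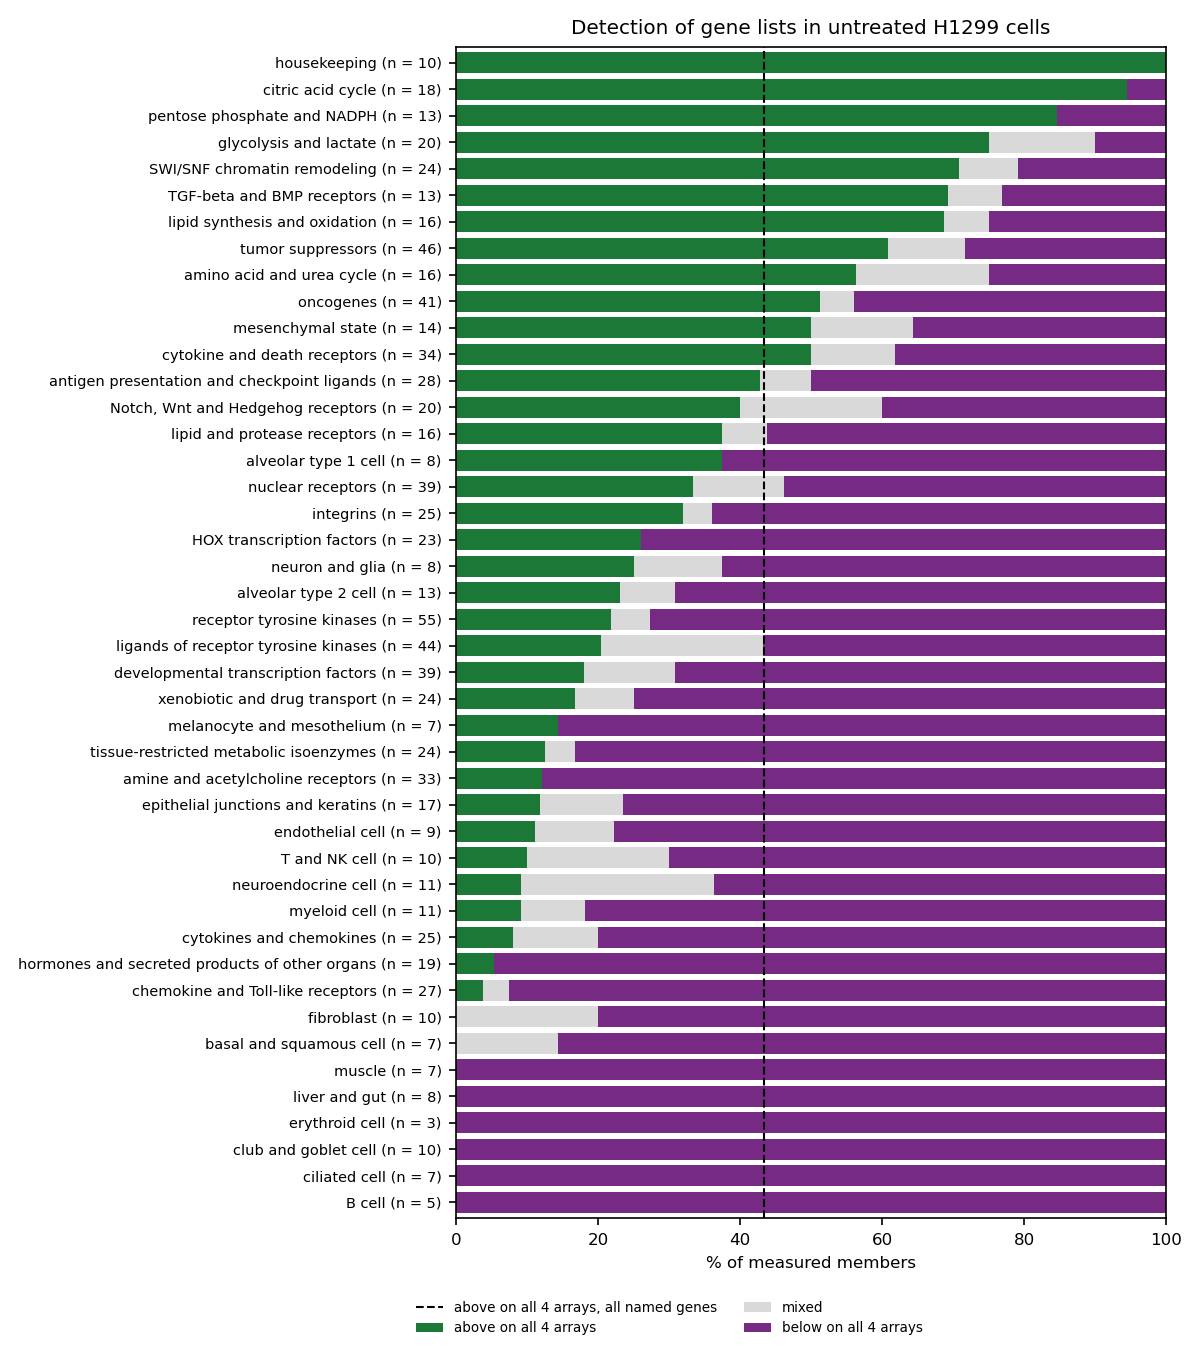
Percent of the measured members of each of 44 gene lists that were above background on all 4 untreated arrays (green), mixed (grey) or below on all 4 (purple), with the number measured after each name. The dashed line marks 43.3%, the share above over all named genes; housekeeping and central metabolism lists lie right of it and lists of other cell types left of it.

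Genes of differentiated lung cells were mostly below background. Across all lists of lineage markers and lineage transcription factors, 35 of 222 measured genes (15.8%) were above on all 4 arrays and 166 (74.8%) below on all 4. In the alveolar type 2 list 3 of 13 members were above (1 at the 99th percentile) and 9 below, and all its measured defining markers were below on all 4 arrays. SFTPB, which encodes surfactant protein B, had 3.04 and 3.89 in 5azaC controls against 4.10 and 4.23 in GA controls. SFTPC, the surfactant gene most restricted to these cells, had 3.69 and 3.43 in 5azaC controls against 3.74 and 2.89 in GA controls. NKX2-1, the transcription factor of lung epithelial identity, read 4.93 and 4.13 in 5azaC controls against 3.97 and 3.96 in GA controls. No array reached its percentile for any of these genes, nor for the aspartic protease gene NAPSA at 2.78 to 3.58. Those above were ETV5, LAMP3 and ABCA3. ETV5, an ETS transcription factor downstream of receptor tyrosine kinase signaling, read 9.68 and 9.65 in 5azaC controls against 11.05 and 11.20 in GA controls, with all signals of the GA controls above all of the 5azaC controls. LAMP3, a lysosomal membrane protein, had 9.09 and 9.04 in 5azaC controls against 9.33 and 9.11 in GA controls. ABCA3, the lipid transporter of lamellar bodies, had 7.52 and 7.61 in 5azaC controls against 7.85 and 7.96 in GA controls. ETV5 was the 1 member above on all 4 arrays at the 99th percentile.

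Genes of the other airway cells were mostly below background as well. All 10 measured club and goblet genes and all 7 ciliated genes were below on all 4 arrays. SCGB1A1, the club cell secretoglobin, ranged over 2.80 to 3.67, the mucin MUC5AC over 2.57 to 3.03 and FOXJ1, the master regulator of motile cilia, over 3.91 to 4.88. None of the 7 basal and squamous genes was above on all 4, 6 were below and S100A2 was mixed, and at the 90th percentile 2 were above. The basal keratins KRT5 and KRT14 ranged over 2.94 to 3.51 and 2.31 to 2.67. In the alveolar type 1 list 3 of 8 genes were above, and at the 99th percentile CAV1 alone. CAV1, which encodes the coat protein of caveolae, was strong at 14.35 and 14.35 in 5azaC controls against 13.57 and 13.72 in GA controls. The membrane protein genes AGER, PDPN and AQP5, the other defining markers of that list, were below on all 4 arrays, with PDPN at 2.57 to 2.98. The list thus rested on CAV1, RTKN2 and EMP2, of which CAV1 is common in cultured cells.

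Genes of the epithelial junction and keratin list were mostly below background. KRT8 and KRT18 were the only keratins of the list above it on all 4 arrays. Of 17 genes of epithelial junctions and keratins 2 were above, 13 below and 2 mixed, with 1 above at the 99th percentile and 4 at the 90th. CDH1, which encodes E-cadherin, read 3.15 and 2.64 in 5azaC controls against 3.09 and 3.02 in GA controls. EPCAM read 3.80 and 4.54 in 5azaC controls against 3.19 and 3.32 in GA controls, and the splicing regulator ESRP1 read 5.23 and 4.66 in 5azaC controls against 5.54 and 4.53 in GA controls. Tight junction genes CLDN3 and CLDN4, the small GTPase gene RAB25, the transcription factors GRHL2, ELF3, OVOL1 and OVOL2, the P-cadherin gene CDH3, plakoglobin (JUP) and KRT19 were below background too. KRT8 and KRT18, which pair in the filaments of simple epithelia, were the exceptions within the list. KRT8 had 11.42 and 11.70 in 5azaC controls against 11.24 and 11.28 in GA controls. KRT18 had 11.23 and 11.21 in 5azaC controls against 9.32 and 9.86 in GA controls, higher in both 5azaC controls. CLDN7 and KRT7 were mixed, the first above on 3 arrays at 6.75 and 7.14 in 5azaC controls against 7.50 and 7.22 in GA controls. The list leaves out CLDN1, CLDN12 and KRT80, which were above on all 4 arrays, both claudins strong. CLDN1 had 13.09 and 13.03 in 5azaC controls against 12.29 and 12.35 in GA controls. KRT80 had 6.99 and 7.13 in 5azaC controls against 7.84 and 7.65 in GA controls. By symbol alone, 3 of 45 keratins and 2 of 24 claudins were above.

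In the mesenchymal list 7 of 14 genes were above and 5 below, and at the 99th percentile 4 were above and 10 below. VIM, the intermediate filament vimentin, was strong at 15.81 and 15.71 in 5azaC controls against 15.17 and 15.27 in GA controls. ZEB1, a repressor of E-cadherin transcription, was strong at 12.32 and 12.62 in 5azaC controls against 12.0 and 11.92 in GA controls. CDH2, which encodes N-cadherin, read 8.55 and 8.45 in 5azaC controls against 7.61 and 7.56 in GA controls, above on each array but not strong. FN1, fibronectin, was likewise above without being strong at 8.40 and 8.50 in 5azaC controls against 8.47 and 7.59 in GA controls. The receptor AXL and the hyaluronan receptor CD44 were strong, with CD44 at 13.37 and 13.29 in 5azaC controls against 12.01 and 12.36 in GA controls. The repressors SNAI1 and SNAI2, the matrix protein gene SPARC, S100A4 and TWIST2 were below on all 4 arrays. TWIST1 was above on 1 array and ZEB2 on 1, so of the repressors measured here ZEB1 was the one above background throughout.

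**Figure D3:**
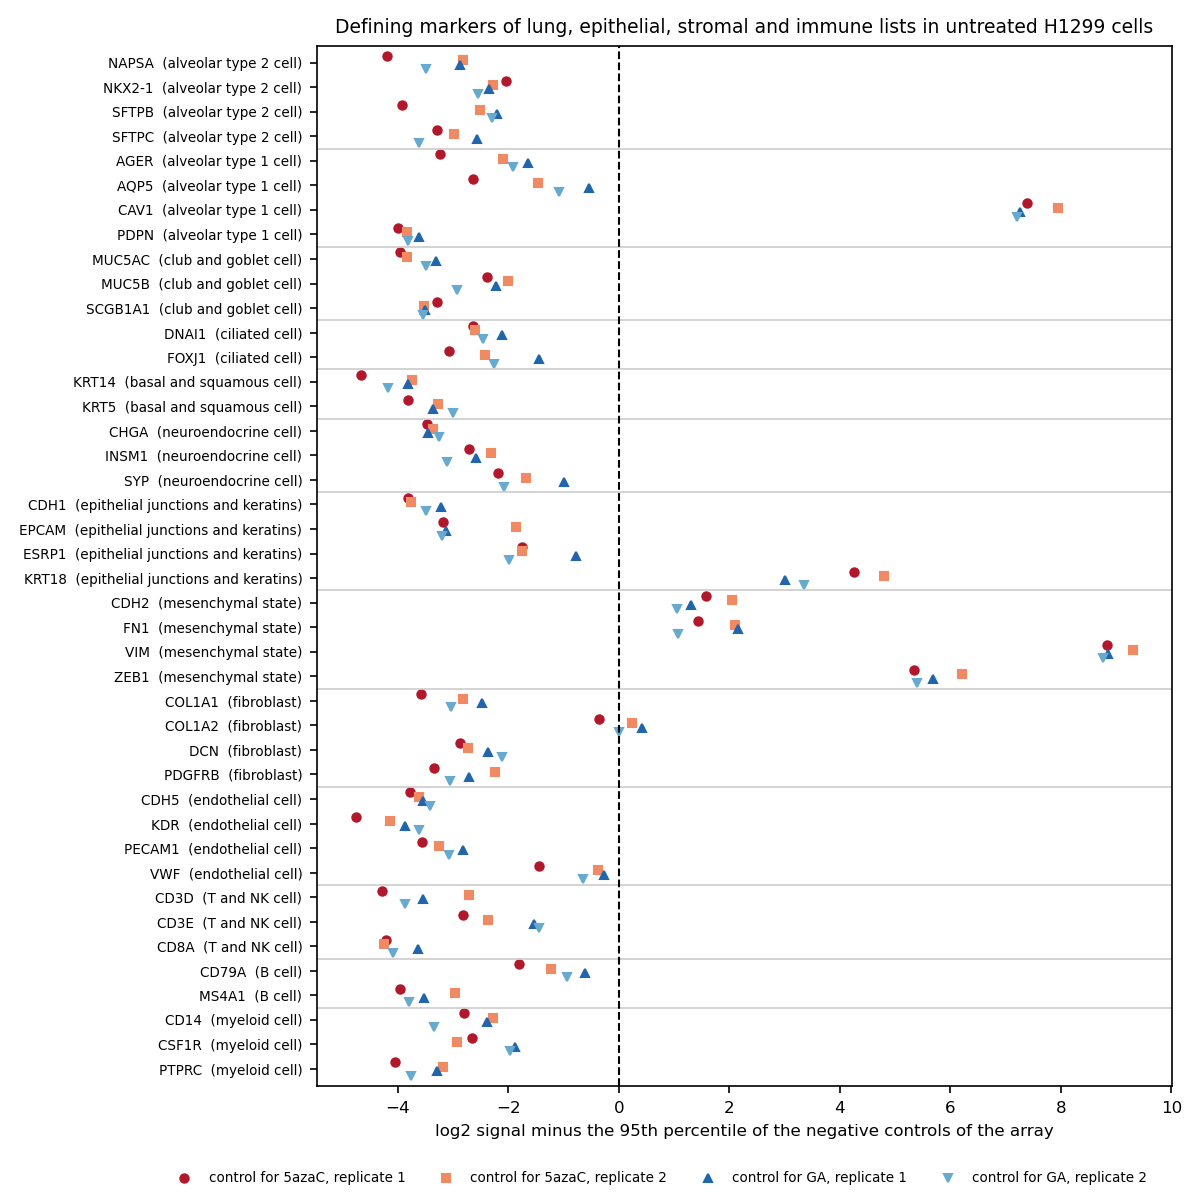
Log2 signal minus the 95th percentile of the negative controls of the same array for the defining markers of the lung, epithelial, mesenchymal, fibroblast, endothelial and immune lists, grouped by list, with 1 symbol per array (5azaC controls red, GA controls blue) and 0 marking the percentile. CAV1, KRT18, CDH2, FN1, VIM and ZEB1 lie right of 0 on all 4 arrays and COL1A2 straddles it; every other marker drawn lies left of it on all 4.

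Markers of cells that are not carcinoma were mostly below background. None of the measured fibroblast genes was above on all 4 arrays, with the collagen gene COL1A1 at 3.39 to 3.84 and the growth factor receptor PDGFRB at 3.45 to 4.17. COL1A2, the partner chain of type I collagen, lay close to the percentile at 6.61 and 6.64 in 5azaC controls against 6.74 and 6.51 in GA controls. All 5 B cell genes, all 3 erythroid genes, all 8 liver and gut genes and all 7 muscle genes were below on all 4 arrays. At the 90th percentile 2 fibroblast genes and 1 B cell gene were above and 2 B cell genes below on all 4. At that threshold 3 endothelial genes and 2 each of the myeloid and the T and NK cell lists were above, against 1 in each list at the 95th. The leukocyte antigen PTPRC ranged over 2.76 to 3.22 and the endothelial cadherin CDH5 over 2.77 to 3.20. A few single genes of these lists were above on all 4 arrays. CD68, a lysosomal glycoprotein known from macrophages, was strong at 12.29 and 12.26 in 5azaC controls against 12.15 and 12.10 in GA controls, while the myeloid receptors CD14 and CSF1R were below. EGFL7, a secreted protein of endothelial cells, had 10.29 and 10.43 in 5azaC controls against 9.68 and 9.85 in GA controls while 3 of the 4 defining endothelial genes stayed more than 2 log2 units under the percentile and VWF lay at 5.53 to 6.04. CALB2, the calcium-binding protein calretinin, had 10.01 and 10.29 in 5azaC controls against 9.29 and 9.47 in GA controls, and the mesothelial gene MSLN ranged over 2.38 to 3.39. PRF1, the perforin of cytotoxic lymphocytes, was above by a small margin at 7.55 and 8.0 in 5azaC controls against 7.54 and 6.83 in GA controls with CD3D, CD3E and CD8A below. CALB2 and PRF1 were not above on all 4 arrays at the 99th percentile, nor was PRF1 against a background of 23 GC-matched control rows, an alternative to the negative controls.

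Neuronal and neuroendocrine genes were mostly below as well. Of 11 neuroendocrine genes 1 was above, 7 were below and 3 were mixed, and at the 90th percentile 4 were above. Without replicate 1 of the GA controls 2 were above. UCHL1, a ubiquitin hydrolase of neurons and neuroendocrine cells, had 16.25 and 15.99 in 5azaC controls against 16.42 and 16.36 in GA controls, over 9 log2 units above the percentile on every array. CHGA, the granule protein chromogranin A, ranged over 2.85 to 3.51, synaptophysin (SYP) over 4.43 to 5.31 and the transcription factor INSM1 over 3.41 to 4.27. The 3 mixed genes were CHGB, GRP and SCG2. CHGB, chromogranin B, was above on 3 arrays, at 7.4 and 7.8 in 5azaC controls against 6.0 and 6.7 in GA controls. GRP and SCG2 were each above on 1 array. SYT1, a calcium sensor of vesicle release, was strong at 10.40 and 10.34 in 5azaC controls against 10.23 and 10.49 in GA controls. MAP2, which binds dendritic microtubules, was above at 8.73 and 8.73 in 5azaC controls against 9.31 and 9.12 in GA controls. SYT1 was above on all 4 arrays at the 99th percentile too, and MAP2 was then mixed. The neurofilament genes NEFL and NEFM, GFAP and GAP43 were below. SNAP25, a partner of SYT1 in vesicle fusion, was above on both 5azaC controls and on neither GA control, at 7.78 and 7.33 in 5azaC controls against 5.33 and 6.27 in GA controls.

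Among transcription factors of body pattern, 6 of 23 measured HOX genes were above and 17 below, with none mixed, and at the 99th percentile HOXB2 alone was above. All 6 were of the HOXB and HOXC clusters. HOXB2 was the only strong one at 11.01 and 11.07 in 5azaC controls against 10.58 and 10.36 in GA controls. HOXB7 had 9.82 and 10.27 in 5azaC controls against 9.31 and 9.70 in GA controls and HOXB9 9.61 and 9.56 in 5azaC controls against 8.55 and 8.59 in GA controls. HOXC8, HOXC9 and HOXC10 completed the group, with HOXC10 lower in 5azaC controls at 7.84 and 7.20 in 5azaC controls against 8.69 and 8.52 in GA controls. Every measured HOXD gene was below on all 4 arrays, among them HOXD10 at 1.88 to 2.72. Of 39 developmental transcription factors 7 were above, namely RUNX1, RUNX2, RUNX3, SOX9, GATA6, LHX2 and PAX6. At the 99th percentile RUNX1, RUNX2 and SOX9 were above, and at the 90th 14 were. RUNX2, a regulator of bone formation, had 11.44 and 10.92 in 5azaC controls against 10.84 and 10.66 in GA controls. SOX9, which acts in cartilage and in the tips of the growing lung, had 10.03 and 9.87 in 5azaC controls against 9.76 and 10.0 in GA controls. GATA6, a zinc finger factor of endoderm and lung, read 8.89 and 8.90 in 5azaC controls against 8.94 and 8.74 in GA controls. FOXA2, its partner in lung endoderm, ranged over 2.53 to 2.79, and FOXA1 and SOX2 were below on all 4 arrays as well. SOX2 missed the percentile by under 0.1 log2 units on 1 array, at 5.60 and 5.56 in 5azaC controls against 5.96 and 6.48 in GA controls.

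The promoters of several of these genes are shown beside the shares of genes above background among promoters rich in CG dinucleotides and among the rest, which are given as a description without a test. RefSeq start sites (GRCh38.p14) gave a window of 250 bases before to 50 after the start for 14250 of the 17687 genes (80.6%). Among the 7060 with a GC content of at least 55% and at least 0.75 of the CG dinucleotides that their base composition predicts, 62.4% were above on all 4 arrays and 28.5% below. Among the other 7190, 29.1% were above and 65.0% below. A promoter was found for 84.7% of genes above and 76.6% of genes below. VIM and MET were above background, and MGMT, NAPSA and SFTPB below it. Capitals mark CG dinucleotides in the sequences, read 5′ to 3′ on the strand of the gene, for VIM at chr10:17227991-17228290 (plus strand), MET at chr7:116671946-116672245 (plus), MGMT at chr10:129466991-129467290 (plus), NAPSA at chr19:50369253-50369552 (minus) and SFTPB at chr2:85668692-85668991 (minus).
VIM: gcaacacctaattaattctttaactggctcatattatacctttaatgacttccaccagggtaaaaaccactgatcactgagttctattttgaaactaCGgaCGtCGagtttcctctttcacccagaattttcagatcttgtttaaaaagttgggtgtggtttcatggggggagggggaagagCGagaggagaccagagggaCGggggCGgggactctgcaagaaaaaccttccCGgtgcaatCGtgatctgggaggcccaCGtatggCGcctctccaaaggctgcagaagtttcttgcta
MET: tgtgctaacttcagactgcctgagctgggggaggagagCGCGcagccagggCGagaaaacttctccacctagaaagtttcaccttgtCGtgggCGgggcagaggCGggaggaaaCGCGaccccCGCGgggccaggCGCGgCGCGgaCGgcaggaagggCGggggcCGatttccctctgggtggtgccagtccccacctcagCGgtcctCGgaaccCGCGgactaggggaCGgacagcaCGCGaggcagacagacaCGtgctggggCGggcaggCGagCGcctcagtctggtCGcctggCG
MGMT: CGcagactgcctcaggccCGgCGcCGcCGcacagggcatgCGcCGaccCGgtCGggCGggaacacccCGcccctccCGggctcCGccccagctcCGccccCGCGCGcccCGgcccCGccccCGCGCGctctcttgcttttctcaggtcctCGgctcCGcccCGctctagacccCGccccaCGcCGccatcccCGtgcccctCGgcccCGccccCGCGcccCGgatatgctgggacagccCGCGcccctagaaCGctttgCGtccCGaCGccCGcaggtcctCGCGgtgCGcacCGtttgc
NAPSA: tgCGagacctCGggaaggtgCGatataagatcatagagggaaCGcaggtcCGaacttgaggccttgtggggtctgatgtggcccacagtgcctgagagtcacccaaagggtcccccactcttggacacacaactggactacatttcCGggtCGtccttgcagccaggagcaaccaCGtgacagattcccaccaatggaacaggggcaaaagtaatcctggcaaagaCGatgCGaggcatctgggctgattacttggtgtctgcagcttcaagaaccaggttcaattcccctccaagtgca
SFTPB: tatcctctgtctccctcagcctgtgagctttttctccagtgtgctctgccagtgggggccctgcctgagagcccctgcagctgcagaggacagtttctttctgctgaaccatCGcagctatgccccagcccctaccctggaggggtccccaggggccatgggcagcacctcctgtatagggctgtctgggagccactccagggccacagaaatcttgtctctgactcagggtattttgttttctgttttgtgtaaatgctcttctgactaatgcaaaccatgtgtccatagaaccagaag

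The MGMT window held 45 CG dinucleotides, the MET window 30, the VIM and NAPSA windows 10 each and the SFTPB window 1. SFTPB and NAPSA, with few, belong to the surfactant program, whereas MGMT had the most of the 5 and was below background. The letters GGGCGG were searched on both strands, and each match also holds a CG. They were found in the windows of VIM, MET and MGMT. Their share was 59.5% over the 14250 measured genes with a promoter and 44.6% over all 27305 promoters of the table. CCAAT was found in NAPSA (36.4% of the measured genes, 35.7% of the table). TATAAA was found in none of the 5 (9.4% of the measured genes, 12.0% of the table). Methylation of these promoters was not measured on the arrays.

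Of 41 measured oncogenes, 21 were above, 18 below and 2 mixed, and 13 were strong, with 12 above at the 99th percentile. MYC, the transcription factor of growth and ribosome synthesis, had 12.83 and 12.82 in 5azaC controls against 13.78 and 13.93 in GA controls, so that both GA controls lay above both 5azaC controls. Its relatives MYCN and MYCL were below, at 3.25 to 3.79 and 3.48 to 5.14. CCND1, which encodes cyclin D1, was strong at 13.70 and 13.32 in 5azaC controls against 12.77 and 12.95 in GA controls, together with its kinase partner CDK4. NFE2L2, the regulator of the antioxidant response, had 12.59 and 12.57 in 5azaC controls against 11.88 and 12.42 in GA controls. MET, the receptor of hepatocyte growth factor, was strong at 10.82 and 11.10 in 5azaC controls against 10.81 and 10.28 in GA controls. EGFR, the receptor of epidermal growth factor, was above but not strong at 7.96 and 7.96 in 5azaC controls against 8.17 and 7.76 in GA controls. The same held for the small GTPase gene HRAS at 7.44 and 7.91 in 5azaC controls against 7.48 and 8.26 in GA controls. Kinases that drive subsets of lung adenocarcinoma by fusion were below on all 4 arrays, with ALK at 3.54 and 3.13 in 5azaC controls against 3.92 and 3.55 in GA controls, ROS1 at 2.73 and 2.22 in 5azaC controls against 2.87 and 2.89 in GA controls and RET at 4.91 and 4.85 in 5azaC controls against 4.37 and 4.58 in GA controls. The survival gene MCL1 was strong at 13.60 and 13.84 in 5azaC controls against 12.54 and 12.36 in GA controls, whereas BCL2 was below at 4.54 and 4.59 in 5azaC controls against 4.50 and 4.09 in GA controls. TERT, the catalytic subunit of telomerase, ranged over 3.58 to 5.19, below background on all 4 arrays. FGFR1 was above on 3 arrays at 6.86 and 7.15 in 5azaC controls against 6.64 and 7.14 in GA controls.

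Of 46 tumor suppressor genes, 28 were above, 13 below and 5 mixed, and at the 99th percentile 14 were above and 26 below. CDKN2A, the locus of the cell cycle inhibitor p16 and of ARF, was strong at 13.18 and 13.21 in 5azaC controls against 12.24 and 12.04 in GA controls. RB1, the retinoblastoma protein on which p16 acts through CDK4, was strong at 11.15 and 10.88 in 5azaC controls against 11.10 and 11.10 in GA controls. STK11, the kinase LKB1, had 9.41 and 9.66 in 5azaC controls against 9.81 and 9.92 in GA controls, and KEAP1, which targets NFE2L2 for degradation, had 9.60 and 9.77 in 5azaC controls against 9.49 and 9.56 in GA controls. NF1, a negative regulator of RAS, had 9.95 and 10.24 in 5azaC controls against 9.64 and 10.08 in GA controls. Several suppressors of lung tumors were among the 13 below. RASSF1, a RAS-association domain protein, had 3.44 and 3.0 in 5azaC controls against 3.74 and 3.61 in GA controls. FHIT, a gene at a fragile site, had 2.49 and 2.36 in 5azaC controls against 3.23 and 2.56 in GA controls. RARB, a retinoic acid receptor, ranged over 3.31 to 4.39, and MGMT, which removes alkyl groups from guanine, over 5.04 to 5.25. WIF1 and SFRP1, secreted inhibitors of Wnt, were below too. DAPK1, a kinase of cell death, was above by a small margin at 7.18 and 6.83 in 5azaC controls against 7.86 and 7.29 in GA controls. CDKN1A, the cell cycle inhibitor p21, was above on both 5azaC controls and on neither GA control at 7.01 and 6.51 in 5azaC controls against 5.80 and 6.38 in GA controls, a difference that did not pass the test described further on (adjusted p = 0.286, limma).

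Subunits of the SWI/SNF complex, which moves nucleosomes, were above in 17 of 24 cases, and 12 were strong. At the 99th percentile 11 were above and 9 below, against 5 below at the 95th. ARID1A had 11.45 and 11.63 in 5azaC controls against 11.73 and 11.94 in GA controls and the core subunit SMARCB1 10.65 and 10.50 in 5azaC controls against 9.51 and 9.88 in GA controls. The ATPases that power the complex were not above on all 4 arrays. SMARCA2 ranged over 3.90 to 4.31, below on every array. SMARCA4 lay at the percentile, below on both 5azaC controls and above on both GA controls, at 6.66 and 5.92 in 5azaC controls against 6.48 and 6.54 in GA controls. ACTL6B, DPF3 and SMARCD3, subunits known from neurons or muscle, were below as well, whereas DPF1, a neuronal subunit, was mixed and above on 3 arrays, at 6.94 and 6.76 in 5azaC controls against 7.07 and 7.24 in GA controls.

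**Figure D4:**
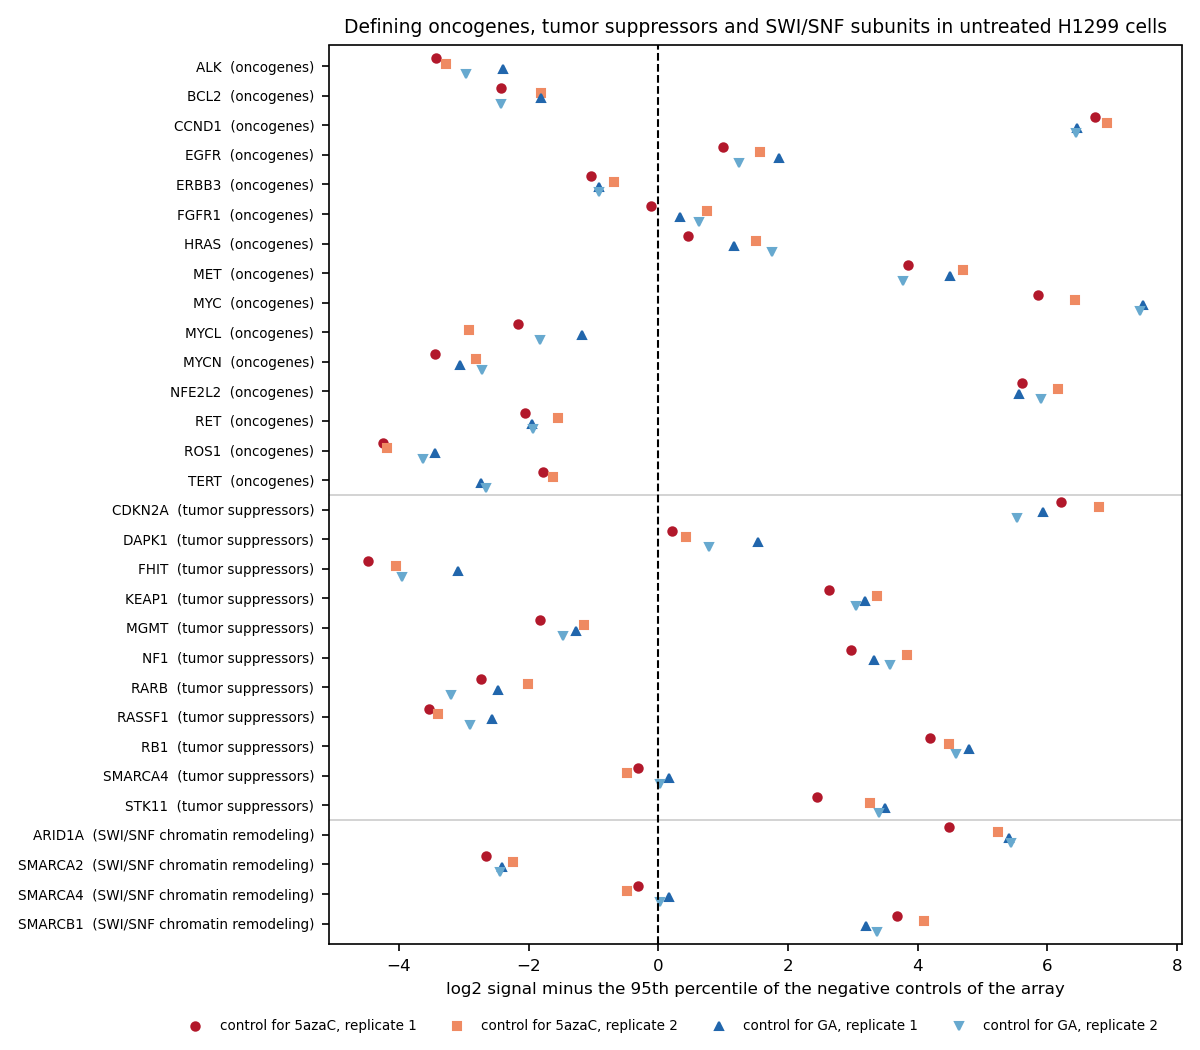
Log2 signal minus the 95th percentile of the negative controls of the same array for defining oncogenes, tumor suppressors and SWI/SNF subunits, with 1 symbol per array (5azaC controls red, GA controls blue) and 0 marking the percentile. CCND1, MYC, NFE2L2, CDKN2A, RB1 and ARID1A lie more than 4 log2 units right of 0 on all 4 arrays, and SMARCA4 and FGFR1 straddle 0.

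Antigen presentation was split by class. Of 28 genes 12 were above (7 at the 99th percentile) and 14 below. B2M, the light chain shared by class I molecules, was strong at 13.53 and 13.35 in 5azaC controls against 13.01 and 12.57 in GA controls. HLA-C, HLA-E, HLA-F and HLA-G were above, and since class I genes are near-identical in sequence, their probe sets may share signal. All measured class II genes were below, with HLA-DRA at 2.17 to 2.97, as was CIITA, their transcriptional activator, at 2.39 to 3.97. NLRC5, its counterpart for class I genes, was below at 2.31 to 3.85. TAP1, one chain of the peptide pump of the endoplasmic reticulum, was mixed at 6.36 and 6.25 in 5azaC controls against 6.62 and 6.17 in GA controls, and its partner TAP2 above. The stress ligands MICA and MICB, the receptors PVR and NECTIN2 and the phagocytosis inhibitor CD47 were above. CD274, which encodes the checkpoint ligand PD-L1, was below on all 4 arrays at 6.35 and 6.20 in 5azaC controls against 4.74 and 5.86 in GA controls, by 0.2 log2 units on the second 5azaC control.

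Genes of central metabolism were mostly above background. In the citric acid cycle 17 of 18 genes were above and 13 strong, the exception being pyruvate carboxylase (PC) at 4.37 to 4.73. At the 99th percentile 3 genes of the cycle were below. In glycolysis 15 of 20 were above and 2 below, with 5 below at the 99th percentile. Of the glycolytic isoenzymes, ALDOA, ENO1 and LDHA and LDHB were strong, and ALDOC and ENO2 were below. LDHA had 15.22 and 15.08 in 5azaC controls against 14.65 and 14.83 in GA controls. The hexokinases HK1 and HK2, which commit glucose to the pathway, were above on both 5azaC controls and on neither GA control. HK1 had 6.97 and 6.51 in 5azaC controls against 5.94 and 6.18 in GA controls, with the first signal at its percentile of 6.97. HK2 had 7.27 and 7.04 in 5azaC controls against 5.95 and 6.29 in GA controls. In the test described further on HK1 did not pass (limma adjusted p = 0.2219). HK2 passed with centring (limma adjusted p = 0.0451) but not with quantile normalization (limma adjusted p = 0.0663). The glucose transporters SLC2A1 and SLC2A3 were strong, whereas SLC2A2 of liver and SLC2A4 of muscle and fat were below. In the pentose phosphate and NADPH list 11 of 13 were above and 2 below, and at the 99th percentile 4 were above and 7 below. In the list of lipid synthesis and oxidation 11 of 16 were above and 4 below, and at the 99th percentile 7 were above and 8 below. Fatty acid synthesis genes ACLY, ACACA, FASN and SCD were all above. SCD, the desaturase, had 15.32 and 15.21 in 5azaC controls against 15.24 and 15.39 in GA controls. FASN, fatty acid synthase, had 12.48 and 12.58 in 5azaC controls against 13.87 and 13.79 in GA controls, lower in both 5azaC controls. The fat cell regulator PPARG was below at 4.99 to 5.37, as was the fatty acid transporter CD36.

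Enzymes of serine and asparagine synthesis were strong, apart from PSPH. PSAT1, the aminotransferase of serine synthesis, had 16.90 and 16.59 in 5azaC controls against 16.69 and 16.56 in GA controls. ASNS, asparagine synthetase, had 15.66 and 15.38 in 5azaC controls against 15.50 and 15.17 in GA controls, and PHGDH, the first enzyme of serine synthesis, had 10.85 and 10.83 in 5azaC controls against 10.99 and 11.32 in GA controls. PSPH, the last step of serine synthesis, was above on 3 arrays and higher in both 5azaC controls, at 7.98 and 8.07 in 5azaC controls against 6.61 and 6.33 in GA controls. The urea cycle genes were split. CPS1, OTC and ARG1 were below on all 4 arrays, with CPS1 at 3.39 to 4.34. ASL, argininosuccinate lyase, was above at 9.53 and 9.40 in 5azaC controls against 8.88 and 8.85 in GA controls. ARG2, the mitochondrial arginase, was above on 1 array, at 6.92 and 6.57 in 5azaC controls against 5.60 and 5.56 in GA controls. ASS1, which condenses citrulline and aspartate, was mixed at 6.76 and 6.45 in 5azaC controls against 5.12 and 5.41 in GA controls. Of the 16 genes of the amino acid and urea cycle list 4 were below, against 7 at the 99th percentile. Of 24 isoenzymes restricted to single tissues 20 were below, among them the gluconeogenic enzymes FBP1, G6PC1 and PCK1. Creatine kinase B (CKB) and the phosphorylases PYGB and PYGL were above (6 genes at the 90th percentile), with CKB at 11.51 and 11.57 in 5azaC controls against 10.83 and 10.89 in GA controls.

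Detoxification genes were mostly below background. Of 24, 4 were above and 18 below. NQO1, a quinone reductase under NFE2L2, was strong at 14.56 and 14.05 in 5azaC controls against 13.95 and 13.98 in GA controls. GSTP1, a glutathione transferase, was strong at 11.76 and 11.46 in 5azaC controls against 12.02 and 12.02 in GA controls. The aldo-keto reductases AKR1B10, AKR1C1, AKR1C2 and AKR1C3, of which several are also known as NFE2L2 targets, were below on all 4 arrays, with AKR1B10 at 2.07 to 2.96. The AKR1C genes are near-identical copies, so that their signals are not independent. The drug pumps ABCB1 and ABCG2 ranged over 4.45 to 4.75 and 4.21 to 5.02, and CYP3A4 over 2.87 to 3.14.

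Receptors were mostly below background. Across the receptor, ligand and adhesion lists 89 of 331 measured genes (26.9%) were above and 209 (63.1%) below. Of 55 receptor tyrosine kinases 12 were above (6 at the 99th percentile), 40 below and 3 mixed. AXL, a receptor of the ligand GAS6, had 13.30 and 13.23 in 5azaC controls against 13.45 and 13.54 in GA controls. MERTK, of the same family, was above too, and TYRO3, the third member, was below. EPHA2, an ephrin receptor, had 10.64 and 10.76 in 5azaC controls against 10.71 and 10.62 in GA controls, and IGF1R, the receptor of insulin-like growth factors, had 8.99 and 8.58 in 5azaC controls against 7.97 and 7.69 in GA controls. ERBB3, which pairs with EGFR, ranged over 5.39 to 5.94. KIT, FLT3, KDR and PDGFRA were below on all 4 arrays, with KIT at 2.29 to 2.58. Of 44 ligands of these receptors 9 were above and 25 below. The count above was 4 at the 99th percentile, with 38 below, and 18 at the 90th. HGF, the ligand of MET, ranged over 2.96 to 3.29, and GAS6, the ligand of AXL, was mixed at 5.48 and 4.97 in 5azaC controls against 6.49 and 6.26 in GA controls. TGFA, a ligand of EGFR, was above at 9.11 and 8.34 in 5azaC controls against 8.02 and 8.65 in GA controls. VEGFA, the main growth factor of vessels, had 11.38 and 11.16 in 5azaC controls against 10.78 and 11.0 in GA controls, while its receptors FLT1 and KDR were below. FGF2 and FGF5 were strong. Neuregulin NRG1 read 8.51 and 8.51 in 5azaC controls against 8.11 and 8.0 in GA controls, with ERBB3 below and ERBB4 mixed.

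Receptors of the TGF-beta family were above in 9 of 13 cases and below in 3, and at the 99th percentile ENG and BMPR2 alone were above and 10 were below. TGFBR1 had 8.11 and 8.68 in 5azaC controls against 8.61 and 8.05 in GA controls, TGFBR2 had 8.79 and 8.73 in 5azaC controls against 8.55 and 8.73 in GA controls, and TGFB1, the ligand, was strong at 10.66 and 10.90 in 5azaC controls against 10.73 and 10.67 in GA controls. Cytokine and death receptors were above in 17 of 34 cases and below in 13, against 6 above and 23 below at the 99th percentile. The interferon receptor chains IFNAR1, IFNAR2, IFNGR1 and IFNGR2 were all above, with IFNGR1 at 9.62 and 9.25 in 5azaC controls against 8.26 and 8.99 in GA controls. IL6ST, the signaling chain of the interleukin 6 family, had 11.77 and 11.99 in 5azaC controls against 11.11 and 11.17 in GA controls, while the binding chain IL6R ranged over 3.06 to 4.0. TNFRSF1A and FAS were above. Only 2 of 25 cytokines and chemokines were above on all 4 arrays, TGFB1 and the chemokine CXCL2, at 10.54 and 10.26 in 5azaC controls against 10.80 and 11.29 in GA controls. At the 90th percentile 6 were above. IL6, CXCL8 and CCL2 were below at 2.48 to 3.63, 3.13 to 4.24 and 3.41 to 3.91. Of 27 chemokine and Toll-like receptors 25 were below and 1 was above, TLR6 at 9.19 and 9.32 in 5azaC controls against 9.24 and 9.08 in GA controls. TLR6 was mixed at the 99th percentile, and at the 90th 2 receptors were above. CXCR4, the receptor of CXCL12, ranged over 3.57 to 4.16.

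Among 25 integrins 8 were above (4 at the 99th percentile). ITGB1, the beta chain shared by most matrix receptors, was strong at 15.91 and 15.74 in 5azaC controls against 15.16 and 15.44 in GA controls. ITGA3, which pairs with it on laminin, was strong at 13.15 and 13.23 in 5azaC controls against 14.26 and 14.28 in GA controls and ITGA5, the fibronectin receptor chain, above at 7.38 and 8.02 in 5azaC controls against 9.35 and 9.28 in GA controls, both lower in the 5azaC controls. The leukocyte chain ITGB2 and the hemidesmosome chain ITGB4 were below. In the Notch, Wnt and Hedgehog list 8 of 20 were above and 8 below. At the 99th percentile 2 were above and 17 below, and at the 90th 5 were below. NOTCH2 had 11.26 and 11.18 in 5azaC controls against 10.60 and 10.89 in GA controls, whereas NOTCH1 ranged over 4.82 to 5.40. Of 39 nuclear receptors 13 were above and 21 below, against 3 above and 32 below at the 99th percentile. NR3C1, the glucocorticoid receptor, had 9.72 and 9.62 in 5azaC controls against 9.37 and 9.61 in GA controls, and the vitamin D receptor VDR 9.62 and 9.88 in 5azaC controls against 8.71 and 9.54 in GA controls. The estrogen receptor ESR1 ranged over 2.65 to 3.41 and the progesterone receptor PGR over 3.08 to 4.27. Of 33 receptors of amines and acetylcholine 29 were below and 4 were above, none of the 4 at the 99th percentile. CHRNA5, a nicotinic receptor chain in a locus linked to lung cancer risk, read 8.71 and 8.84 in 5azaC controls against 8.29 and 8.53 in GA controls. ADRA2C and ADRA1B, adrenergic receptors, and CHRNB1 were the other members above. Thrombin and lysophospholipid receptors gave 6 of 16 above (1 at the 99th percentile), with F2R at 9.29 and 9.18 in 5azaC controls against 8.74 and 8.34 in GA controls and S1PR1 strong.

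The sets of untreated arrays were then compared with each other, to see which of these levels held across both. Within a set, 1.56% (5azaC controls) and 1.66% (GA controls) of probe sets differed at least 2-fold between the replicates after each array was centred on its median. Between arrays of different sets the share was 9.82% to 12.7%. Centred signals were tested with limma's moderated test, 5azaC controls minus GA controls, with Benjamini-Hochberg adjustment over the 21448 probe sets. At an adjusted p under 0.05, 3479 probe sets (16.2%) differed, 1476 (6.88%) higher and 2003 (9.34%) lower in 5azaC controls. Of the 814 list genes 137 (16.8%) were called, 48 higher and 89 lower, a share close to that of all probe sets. The split by direction depended on the scaling. Of the calls 42.4% were higher in 5azaC controls with centring, 77.7% with the values as deposited and 46.7% with quantile normalization. Without replicate 1 of the GA controls 1 probe set was called, and without any other array 1413 to 1708. Culture, passage and array handling of a set cannot be told apart from the set.

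The 10 largest rises and 10 largest falls were taken among probe sets that passed the test. Entry also required sets that did not overlap and signal above background on both arrays of the higher set. Of these 20, 7 belonged to genes with a symbol. FAM136A, a mitochondrial protein, had 9.82 and 9.59 in 5azaC controls against 6.59 and 6.97 in GA controls, a log2 difference of 2.69 ± 0.23 (SE, limma adjusted p = 0.0048). RELA, the p65 subunit of NF-kappaB, read 9.46 and 8.97 in 5azaC controls against 6.54 and 7.04 in GA controls, a difference of 2.19 ± 0.27 (SE, limma adjusted p = 0.0078). HYCC1, a scaffold of a lipid kinase at the plasma membrane, had 9.09 and 8.96 in 5azaC controls against 6.30 and 6.82 in GA controls, with 1 of the 2 GA controls above background and a difference of the measured signals of 2.23 ± 0.24 (SE, limma adjusted p = 0.0064). METTL1, a methyltransferase of transfer RNA, had 8.04 and 7.56 in 5azaC controls against 5.35 and 5.34 in GA controls; the GA controls were below background, so it was at least 2.22-fold higher in 5azaC controls (limma adjusted p = 0.0053). The other named genes were lower in the 5azaC controls. ATN1, a transcriptional corepressor, had 7.09 and 7.06 in 5azaC controls against 8.90 and 9.15 in GA controls, a difference of -2.19 ± 0.21 (SE, limma adjusted p = 0.0048). SLC25A23, a mitochondrial carrier, had 6.40 and 6.66 in 5azaC controls against 8.54 and 8.32 in GA controls, with 1 of the 2 5azaC controls above background and a difference of the measured signals of -2.14 ± 0.22 (SE, limma adjusted p = 0.0051). SLC6A8, the creatine transporter, had 7.34 and 6.96 in 5azaC controls against 9.21 and 8.73 in GA controls, a difference of -2.06 ± 0.25 (SE, limma adjusted p = 0.0078). Without replicate 1 of the GA controls none of these 7 genes passed the threshold.

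Of the 310 list genes above background on both arrays of a set, 33 were called in the same direction by all 3 scalings. Of the 33, 18 were higher and 15 lower in 5azaC controls. The same share over all genes was not counted, so the 33 cannot be set against it. Those named here were chosen after their values were seen. SMARCE1 and SS18, subunits of SWI/SNF, were higher by 1.61 ± 0.31 (SE, limma adjusted p = 0.0151) and 1.56 ± 0.24 (SE, limma adjusted p = 0.0105). KRT18 was higher by 1.39 ± 0.24 (SE, limma adjusted p = 0.0124), while its partner KRT8 was not called, at 0.07 ± 0.21 (SE, limma adjusted p = 0.8474). MDM2, a ubiquitin ligase, and MCL1 were higher by 1.34 ± 0.23 (SE, limma adjusted p = 0.0119) and 1.03 ± 0.21 (SE, limma adjusted p = 0.0187). ACTB, the cytoskeletal actin often used as a standard, was higher by 1.17 ± 0.26 (SE, limma adjusted p = 0.0221), with 12.50 and 12.21 in 5azaC controls against 10.66 and 11.23 in GA controls. ITGA5 and ITGA3 were lower with differences of -1.85 ± 0.25 (SE, limma adjusted p = 0.0088) and -1.32 ± 0.21 (SE, limma adjusted p = 0.0106). MYC was lower with a difference of -1.27 ± 0.21 (SE, limma adjusted p = 0.0115), FASN with -1.54 ± 0.21 (SE, limma adjusted p = 0.0088) and ETV5 with -1.70 ± 0.21 (SE, limma adjusted p = 0.0079). HOXC10 was lower with -1.33 ± 0.26 (SE, limma adjusted p = 0.0153). SMO, the Hedgehog signal transducer, was lower too at 6.09 and 6.66 in 5azaC controls against 7.66 and 8.18 in GA controls, with 1 of the 2 5azaC controls above background and a difference of the measured signals of -1.78 ± 0.28 (SE, limma adjusted p = 0.0106). Of the 814 list genes 11 were above on both 5azaC controls and on neither GA control, and 8 the reverse. Over all 21448 probe sets, 3739 of them unnamed, these counts were 139 (0.65%) and 138 (0.64%). The 11 included SNAP25, IL4R, GHR, ACTA2 and CYLD, and the 8 included ERG, EPOR, KLF4 and SMARCA4, of which SMARCA4 was not called (limma adjusted p = 0.2554). Among all genes above background on both arrays of a set, the median GC content of the promoter was 63.7% where higher in 5azaC controls, 68.7% where lower, and 65.3% where not called, among the 84.0%, 80.4% and 84.9% of genes with a promoter; the part of base composition in the difference was not tested.

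**Figure D5:**
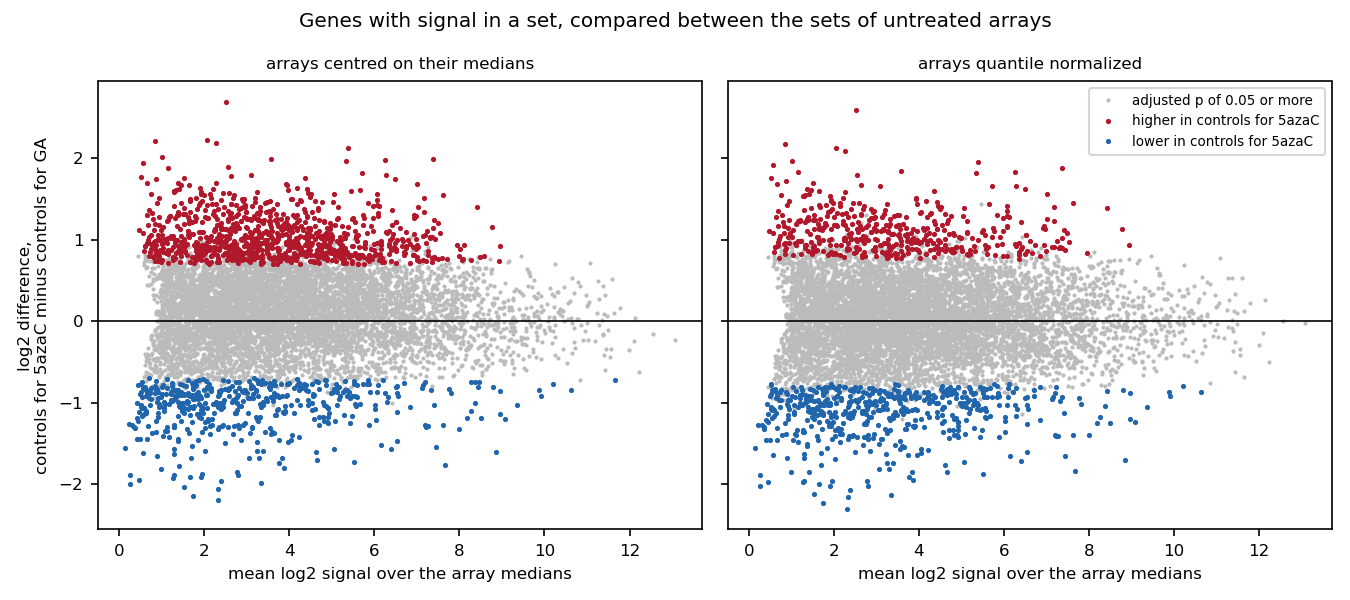
Log2 difference (5azaC controls minus GA controls) against the mean log2 signal over the array medians, for the genes with a symbol that were above background on both arrays of at least 1 set, with centred (left) and quantile normalized (right) arrays. Red points were higher and blue points lower in 5azaC controls at an adjusted p under 0.05 (limma); with centring 941 genes were higher and 484 lower, and with quantile normalization 452 were higher and 540 lower.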

How the data were processed

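RNA of untreated H1299 cells was measured on 4 Clariom S arrays, 2 for each set of controls, and the groups and replicate numbers came from the labels. The values deposited by the authors are log2 signals. They were made by RMA (robust multi-array averaging) after Signal Space Transformation, a correction of probe signals, in the software Affymetrix Expression Console 1.4. Whether the sets were normalized together, and the genome build of the probe sets, are not given in the sources used here. The 4 columns of treated arrays were not used.

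Of 24351 rows, 21448 were gene probe sets and 2903 were controls, of which 612 were negative controls. Symbols came from a table of the platform (17709 probe sets, 3739 unnamed here). For 20 genes with several probe sets, the probe set of highest average signal was taken. A few genes are left out of this account. A call compared each signal with the 95th percentile of the negative controls of its own array, and signal over that background is what depth means here. Levels of different probe sets were compared only to choose 1 probe set per gene and, as margins over the percentile, to choose the genes named. Promoters were the first listed start of each symbol in a RefSeq table (GRCh38.p14).

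The members and the 44 lists were chosen with earlier results of these data known. Genes named were taken from the defining members of each list and from the 10 largest rises and falls between the sets. Up to 8 members of the smaller class of a list and up to 4 of its larger class, by margin over or under the percentile, could be added. Not every gene that this rule allows is named, defining members included, and the rule did not set which were. The rises and falls came only from probe sets that passed the test with sets that did not overlap. Both arrays of the higher set had to be above background. Members named beyond this rule were chosen after their values were seen.

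The sets were compared on median-centred log2 values with limma 3.58.1 in R 4.3.3 (lmFit and eBayes, 2 residual and 6.94 prior degrees of freedom), with a threshold of 0.05 after Benjamini-Hochberg adjustment. The lower bound of the fold for a gene below background in a set was computed against the higher of the dimmest signal above background and the gene's own. The fit was tested on simulated arrays for this comparison (21448 probe sets), where 96 of 100 changed by 4-fold and 7 of 100 changed by 2-fold were recovered, with 5 false calls. The simulation changed far fewer probe sets than the 3479 called in the data, and its noise was independent between probe sets. Its recovery and false calls therefore do not carry over to the comparison of the sets. Alternatives were the 90th and 99th percentiles, the values as deposited, quantile normalization, only probe sets with signal, eBayes with trend and robust settings, a replicate block and leaving out each array. A background from 23 GC-matched control rows was added after the data were seen. The number of arrays limits the precision.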

Additional observations from a re-analysis of the deposited data

How the results depend on the processing

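The count of probe sets above background on all 4 arrays fell to 4007 at the 99th percentile of the negative controls, where 2608 of the 8707 were below on all 4, and the list genes above to 143. At the 90th percentile 10375 were above, and 334 of the 11200 below became above. The GC-matched rows gave 8253. Quantile normalization gave 8707 and leaving out 1 array 8713 to 9036, but the first keeps the order of signals within an array and so can hardly change a call, and the second can only raise the count. Of the 44 lists, the members above moved beyond the limit of 1.5 times for 26 at the 99th percentile, 13 at the 90th, 1 with the GC-matched rows (the T and NK cell list, 1 to 0) and 1 without Ctrl_GA replicate 1 (the neuroendocrine list). The members below moved for 13 lists at the 99th percentile and 3 at the 90th. Between the sets, 3479 probe sets differed with centring (1476 higher and 2003 lower in 5azaC controls), 4231 with the values as deposited (3287 higher, 944 lower) and 2095 with quantile normalization (979 higher, 1116 lower). With only the 9502 probe sets with signal in a set, 2874 differed (1881 higher, 993 lower), and with trend and robust settings 4557. Leaving out 1 array gave 1 to 1708 differences, 1 to 699 higher and 0 to 1009 lower. The lowest counts came without Ctrl_GA replicate 1, where 5677 passed an unadjusted p under 0.05. The cause was not tested. The 7 named genes kept their direction under each alternative and their call under each except the one without Ctrl_GA replicate 1. The deviations of same-numbered arrays from their set means had a correlation of -0.0553 across probe sets, so no shared effect of the replicate number was seen in the signals. Whether same-numbered arrays were handled together cannot be told from it. A fit with the replicate block called 3548.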

Other observations

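Families of genes defined by their symbols alone ranged from fully below background to nearly complete. Of 349 olfactory receptors none was above on all 4 arrays and 348 were below, and of 26 beta-defensins, antimicrobial peptides of epithelia, all were below. Of 85 keratin-associated proteins of hair 1 was above, KRTAP5-1 at 8.98 and 9.05 log2 units in 5azaC controls against 9.28 and 9.01 in GA controls. Proteasome subunits were above in 41 of 44 cases, and the 3 below were PSMA8 and PSMB11, known from testis and thymus, and PSMB10, a subunit of the immunoproteasome, at 5.72 and 5.57 in 5azaC controls against 4.90 and 5.54 in GA controls. Mitochondrial ribosomal proteins were above in 66 of 74 cases, kinesins in 22 of 39 and metallothioneins, which bind metal ions, in 8 of 11. The 3 below were MT3 and MT4, known from brain and stratified epithelium, and MT1E at 4.70 and 4.53 in 5azaC controls against 4.01 and 3.45 in GA controls. Metallothionein genes are near-identical copies whose probe sets may share signal.

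Of 24 claudins 2 were above. CLDN1 had 13.09 and 13.03 in 5azaC controls against 12.29 and 12.35 in GA controls, and CLDN12 had 10.72 and 10.71 in 5azaC controls against 10.00 and 9.71 in GA controls. Cytochromes P450 were above in 4 of 50 cases, namely CYP51A1 of sterol synthesis, CYP2R1, CYP2U1 and CYP4V2. Of 16 clustered protocadherins 5 were above, all of the beta cluster. Of 20 adhesion G protein-coupled receptors 3 were above, and ADGRG6 among them had 12.14 and 12.29 in 5azaC controls against 10.71 and 11.09 in GA controls. IL7 was the 1 interleukin of 44 above, at 7.62 and 7.34 in 5azaC controls against 7.33 and 7.43 in GA controls. Members of these families were named after their values were seen. By chromosome, the share of named genes above on all 4 arrays ranged from 33.7% on chromosome 21 to 50.6% on chromosome 5. Chromosome 11 had 34.0% of 1192.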
